A study of Homo sapiens with 44 samples.

Results

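The genes of the proteasome were followed across the cytokine responses of Ccd-18Co, a fibroblast line from human colon. They were taken as all row symbols of the count table that consist of PSM, 1 letter from A to G and a number with nothing after it, which gave 48 of 40663 symbols. The 48 genes comprised 8 of the alpha ring, 4 structural beta subunits, 3 constitutive and 3 immunoproteasome catalytic subunits and the thymus-specific PSMB11. They also comprised 6 ATPases and 11 other subunits of the 19S cap with 3 chaperones of its assembly, the PA28 genes PSME1 and PSME2, the 2 other activator genes PSME3 and PSME4, the inhibitor gene PSMF1 and 4 chaperones of 20S assembly. Bulk RNA-seq covered 44 libraries, 4 in each of 11 groups. The groups were unstimulated cells and cells given 1 of 10 cytokines for 24 h. These were the interferons IFNγ and IFNα, the interleukins IL-22, IL-6, IL-17A, IL-1β and IL-13, and TNF, OSM and TGF-β1. Every group had first spent 72 h in serum-free medium, and the cytokine dose was 10 ng/ml. IL-1β is the exception, with 0.1 ng/ml in the labels and a lower dose in a legend of the study. All groups came from this 1 line, with up to 20 passages, so the replicates are not donors and the spread between them may be technical.

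The proteasome is the main protease of the cytosol and nucleus. Its 20S core is a barrel of alpha and beta rings, in which PSMB5, PSMB6 and PSMB7 carry the chymotrypsin-like, caspase-like and trypsin-like activities. The 19S cap binds, unfolds and deubiquitinates substrates. Interferon signalling is known to raise PSMB8, PSMB9 and PSMB10, which replace PSMB5, PSMB6 and PSMB7 in newly assembled cores to form the immunoproteasome. PSME1 and PSME2 encode the alpha and beta chains of PA28, a ring that opens the core without ubiquitin, and peptides from these proteasomes are loaded on MHC class I.

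Total counts per library were between 742173 and 2213424 (median 1480882), at which 3 counts corresponded to 1.39 to 3.85 counts-per-million (CPM, of the normalized library size), a limit for counting error only. The summed level of 6 fibroblast markers was 10085 to 20052 CPM in the unstimulated libraries and 3706 to 32571 CPM over all libraries, with the lowest sums after IFNγ and TNF. Of the 6, 5 fell after TNF, 4 after IL-1β, 3 after TGF-β1, 2 after each interferon and 1, THY1, after IL-17A. VIM rose after IL-13, where 1.53% of all genes rose. Of all genes 6.09% fell after TNF, 3.92% after IL-1β and 3.08% after TGF-β1. After IFNα, IFNγ and IL-17A 4.86%, 5.13% and 0.925% fell. The part of these markers in the results was not tested. All 3 epithelial markers stayed at or below 3 counts in every library, as did CD3E and PTPRC among the 5 leukocyte markers, and the endothelial markers summed to at most 2.65 CPM. The 5 leukocyte markers summed to at most 9.30 CPM in unstimulated libraries, 36.1 to 73.8 CPM after IFNα and 8.31 to 20.7 CPM after IFNγ. Of these, CD68 was called, with means of 2.87, 59.1 and 13.9 CPM, and its part in the results was likewise not tested. In bulk libraries, fewer cells with a transcript and less of it per cell cannot be told apart.

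The interferon-inducible subunits were set beside the sequence around their start sites, since binding sites for interferon-activated factors are known from promoters of such genes. The RefSeq windows (GRCh38.p14) used here, of 250 bases before to 50 bases after the start site, covered 42 of the 48 genes, leaving out PSMA7, PSMB1, PSMB6, PSMB7, PSMD4 and PSMG3. The core of an interferon response element, taken as the letters GAAA, then any 2 bases, then GAAA, was looked for on both strands and lay in 3.57% of 35116 windows. By gene it lay in 4.38% of all genes with a window and in 7 of the 42 members (16.7%). Of the 5 interferon-inducible genes 4 held it, PSMB8 (in 1 of its 2 windows), PSMB10, PSME1 and PSME2, together with PSMB4, PSMG4 and PSMA4 (in 1 of its 3 windows). PSMB9 did not have the letters in its window. TAP1, on the opposite strand and with 1 of its 2 start sites 487 bases from that of PSMB9, held 2 matches, 354 and 360 bases before the PSMB9 start site. The stretches of 30 bases around the letters are shown 5′ to 3′ on each gene's own strand to compare the 4 inducible genes, TAP1 (its 2 matches overlap) and the 3 other holders. Capitals mark the match, which reads TTTC, any 2 bases, TTTC where it lies on the opposite strand.
PSMB8: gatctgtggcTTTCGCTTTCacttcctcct
PSMB10: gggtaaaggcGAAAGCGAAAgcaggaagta
PSME1: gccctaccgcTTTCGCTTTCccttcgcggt
PSME2: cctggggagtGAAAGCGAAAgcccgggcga
TAP1: ccgctttcgaTTTCGCTTTCccctaaatgg
PSMG4: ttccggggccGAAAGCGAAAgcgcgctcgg
PSMB4: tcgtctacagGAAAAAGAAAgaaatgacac
PSMA4: atagtgaagaGAAAATGAAAggagagcgcc
The PSMB8 stretch is at chr6:32844032-32844061 (minus strand), PSMB10 at chr16:67936852-67936881 (minus), PSME1 at chr14:24136189-24136218 (plus) and PSME2 at chr14:24146619-24146648 (minus). In these 4 genes the match began at −4, −21, 6 and −28 bases from the start site. It began at −33 in PSMG4, −68 in PSMB4 and −240 in PSMA4. The PSMG4 match ended at −24, so its position overlapped that of the PSME2 match, and both read GAAAGCGAAA. The TAP1 stretch is at chr6:32853813-32853842 (minus), PSMG4 at chr6:3258904-3258933 (plus), PSMB4 at chr1:151399495-151399524 (plus) and PSMA4 at chr15:78540155-78540184 (plus). A 2nd motif, the letters TTCNNNGAA of a gamma-activated site, which read alike on both strands, lay in 7.66% of windows, in 9.38% of genes and in 8 of the 42 members (19.0%). Among the inducible genes it lay in PSMB8 alone, from −65 to −57 bases (chr6:32844093-32844122, minus strand), clear of the first motif, and is shown because PSMB8 held both.
PSMB8: aactgtccttTTCTCGGAAaaggcaggggg
The other 7 genes with TTCNNNGAA were PSMA2, PSMA8, PSMB5, PSMC4, PSMD2, PSMD3 and PSME3. A match is a string of letters and was not tested for binding here.

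**Figure D1:**
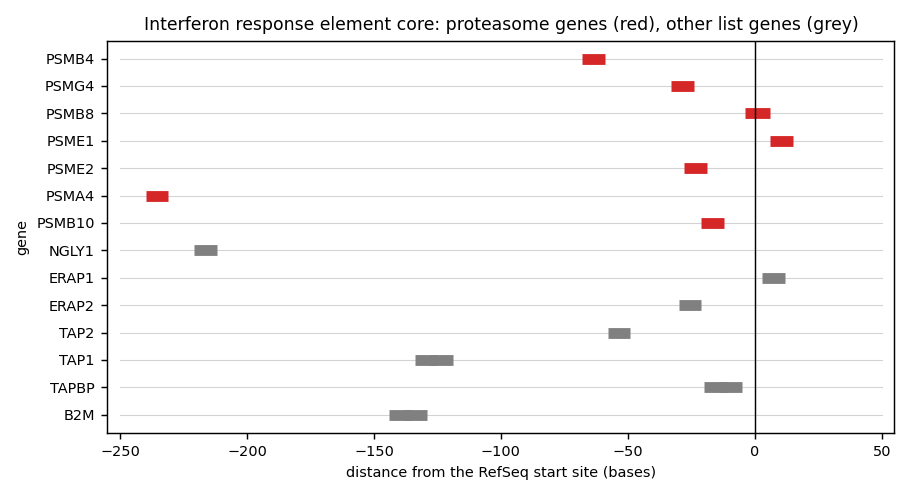
Position of each match to the interferon response element core (thick bars) in bases from the RefSeq start site (vertical line at 0) for proteasome genes in red and genes of the other lists in grey, with thin lines for the window searched. Matches in PSMB8, PSMB10, PSME1 and PSME2 lie within 28 bases before to 15 bases after the start site. Those of PSMG4, PSMB4 and PSMA4 begin at −33, −68 and −240.

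In unstimulated cells each immunoproteasome subunit lay far below the constitutive subunit it replaces. Levels are compared between genes per kb of the canonical transcript (GENCODE release 44), as a description. PSMB4, a structural beta subunit, had the highest level at 772 ± 143 CPM per kb (SD, n = 4), followed by PSMB1 (661 ± 101) and PSMB6 (643 ± 59.5). PSMB7 and PSMB5 stood at 203 ± 24.8 and 181 ± 36.0 CPM per kb. Their immunoproteasome counterparts had 22.6 ± 5.45 CPM per kb (PSMB9), 11.4 ± 4.66 (PSMB10) and 8.94 ± 4.45 (PSMB8). The range of PSMB8 overlapped that of PSMB10. PSME2 (187 ± 26.5 CPM per kb) and PSME1 (75.7 ± 5.59) lay well above the immunoproteasome subunits before any cytokine was added.

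Levels differed within each structural class. In the alpha ring they ran from 38.2 ± 2.08 CPM per kb for PSMA5 to 324 ± 92.0 for PSMA2, and in the structural beta class PSMB2 was lowest at 16.8 ± 1.57. In the 19S cap, PSMC3 (123 ± 46.2) and PSMC4 (32.5 ± 12.0) were the highest and lowest ATPases. PSMC5 (122 ± 38.6) and PSMC6 (115 ± 22.25) lay within the SD of PSMC3. The order depends on the transcript length used, since before division by it PSMC1 (281 CPM) lay above PSMC3 (190 CPM). PSMD4, a ubiquitin receptor, had 310 ± 10.9 CPM per kb against 1.70 ± 1.61 for PSMD3. PSMD10 had 146 ± 38.0 and PSMD9 17.8 ± 5.54 among the chaperones of 19S assembly. PSME3 had 29.8 ± 9.73 and PSME4 7.25 ± 2.09, PSMG2 39.9 ± 6.74 and PSMG3 10.5 ± 3.84, and PSMF1 2.62 ± 1.45. PSMA8, a testis-enriched alpha subunit, and PSMB11 had 0 counts in all 44 libraries and were not measured, so 46 members entered the tests. Transcripts of other annotated copies can share reads with a member. The rows of PSMC1 pseudogenes together held 7.43% as many counts as PSMC1, and every other member's pseudogene rows held under 0.1%. PSMA3-AS1 held 67.4% as many counts as PSMA3, PSMB8-AS1 22.2% as many as PSMB8 and PSMG3-AS1 11.0% as many as PSMG3. Counting with default settings used no strand, so reads from bases that a member shares with an antisense gene cannot be told apart. How many bases are shared was not computed. The values of PSMA3, PSMB8, PSMC1 and PSMG3 are therefore uncertain to an unknown extent. The same holds for PSMB9, whose annotated span contains TAP1 and overlaps that of PSMB8, both on the other strand.

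**Figure D2:**
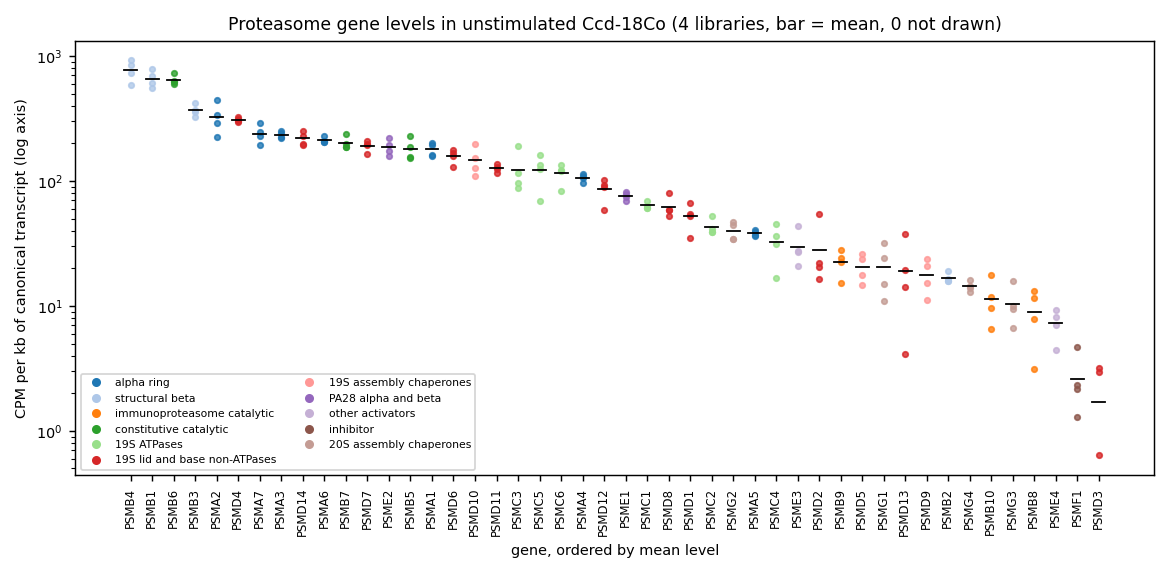
Level of each measured member in the 4 unstimulated libraries (points, coloured by class; bar, mean) in CPM per kb of canonical transcript on a log axis, ordered by mean, with values of 0 not drawn. PSMB4 leads at 772, and the 3 immunoproteasome subunits (orange) sit at 22.6 and below.

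Each cytokine was compared with unstimulated cells to ask which proteasome genes it moved. Calls rest on edgeR's quasi-likelihood test with p-values adjusted over 9513 genes (Benjamini-Hochberg) and a threshold of 0.05. All 10 comparisons share the 4 unstimulated libraries. IFNγ raised 17 of 46 members (37.0%) and lowered 0, where 5.52% of all genes rose and 5.13% fell. IFNα raised 13 (28.3%) and lowered 1, PSMD12, against 4.99% and 4.86% of all genes. TNF raised 18 (39.1%) and IL-1β raised 21 (45.7%), and neither lowered any, against 5.37% up and 6.09% down of all genes for TNF, and 3.46% and 3.92% for IL-1β. TGF-β1 raised 5 (2.61% of all genes rose and 3.08% fell), IL-13 raised 4 (1.53% and 2.4%), OSM raised 1 (1.42% and 2.54%) and IL-17A raised 1 (0.599% and 0.925%), with 0 members lowered by any of these. IL-6 called 0 members, with 0 at an unadjusted p under 0.05 and 0 called by DESeq2, and 0.0105% of all genes rose and 0% fell. IL-22 called 0 members, where 0% of all genes rose and 0% fell. For IL-22, 11 members had an unadjusted p under 0.05, and DESeq2 called 2, PSMA2 and PSMC2.

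The median log2 fold change over the 46 members was 0.51 for IL-1β and for TNF, 0.39 for IFNγ, 0.31 for TGF-β1, 0.24 for IFNα, 0.22 for OSM, 0.17 for IL-13, 0.13 for IL-17A, 0.11 for IL-22 and 0.06 for IL-6. The median over all genes was between −0.046 and 0.002. Rises above 1.5 on the log2 scale were limited to PSMB8, PSMB9, PSMB10, PSME1 and PSME2 after IFNγ and IFNα and to PSME2 after TNF. The smaller counts depended on single libraries. The OSM call was lost without any of 6 of the 8 libraries compared, and the count was 4 without unstimulated replicate 1 and 2 without OSM replicate 4. The IL-17A count was 3 without unstimulated replicate 3 and 0 without unstimulated replicate 2 or IL-17A replicate 2, 3 or 4. For TGF-β1 it was 9 without TGF-β1 replicate 4, 1 without unstimulated replicate 2, 2 without unstimulated replicate 4 or TGF-β1 replicate 1, and 3 without TGF-β1 replicate 3. For IL-22 it was 1 without unstimulated replicate 3. Over the 10 cytokines, 18 members were raised by none, 10 by 4 or more, and PSMA7, PSMB4, PSMB6, PSME1 and PSME2 by 5.

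**Figure D3:**
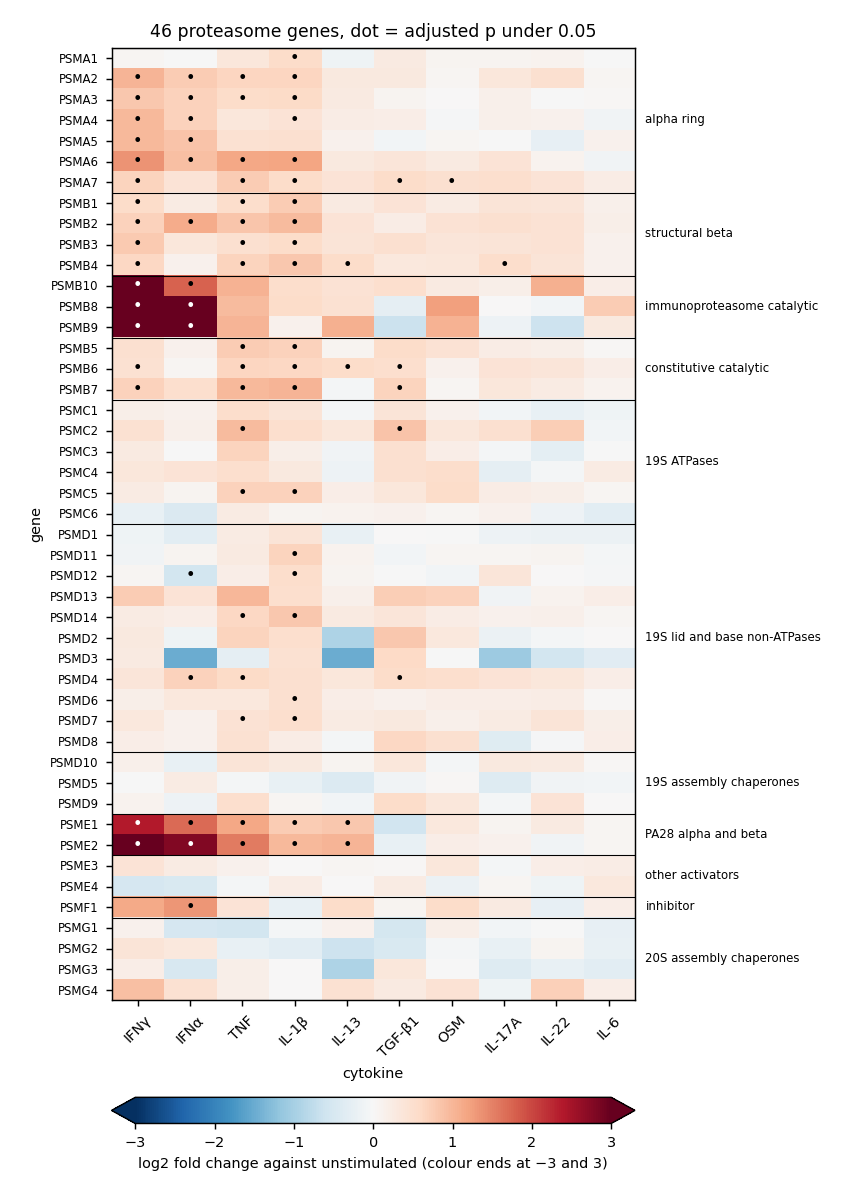
Log2 fold change of the 46 tested members (rows, by class) after each cytokine (columns) against unstimulated cells, with a dot where the adjusted p is under 0.05 and colour ending at −3 and 3. The immunoproteasome and PA28 rows are darkest after IFNγ and IFNα, and the alpha, beta and constitutive catalytic rows carry dots after IFNγ, TNF and IL-1β.

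PSMB9, PSMB8 and PSMB10 all rose after both interferons. PSMB9, the caspase-like position's replacement (chromosome 6 of GRCh38, 32844136 to 32859851), had 23.0, 24.8, 15.5 and 28.7 CPM in unstimulated replicates 1 to 4. After IFNγ it had 824, 710, 1017 and 956 CPM, and after IFNα 642, 743, 594 and 526 CPM. The lowest interferon library was above every library of the 9 other groups. This was a log2 fold change of 5.25 for IFNγ (SE 0.368, adjusted p = 2.93e-15) and 4.76 for IFNα (SE 0.362, adjusted p = 2.89e-14). The annotated span of PSMB9 contains that of TAP1 (32845209 to 32853816) and overlaps that of PSMB8 (32840717 to 32844679), both on the other strand.

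PSMB8, which takes the place of PSMB5 (chromosome 6, 32840717 to 32844679), had 14.7, 13.1, 3.52 and 8.88 CPM in unstimulated cells. It had 185, 139, 239 and 264 CPM after IFNγ and 97.0, 139, 67.5 and 92.2 CPM after IFNα. All 8 interferon libraries lay above those of every other group, whose highest value was 33.5 CPM after OSM. The log2 fold change was 4.33 for IFNγ (SE 0.395, adjusted p = 1.29e-11) and 3.27 for IFNα (SE 0.386, adjusted p = 1.05e-08). PSMB8-AS1, antisense to it, had 2 to 9 counts in the unstimulated libraries, 46 to 63 after IFNγ and 27 to 59 after IFNα, and the counting used no strand.

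PSMB10, which takes the place of PSMB7 (chromosome 16, 67934506 to 67936864), had 17.1, 9.48, 6.33 and 11.6 CPM in unstimulated cells. After IFNγ it had 94.9, 96.4, 128 and 154 CPM, all above every other library of the series. After IFNα the libraries spread over 59.5, 55.3, 27.0 and 13.7 CPM, and the lowest lay within the unstimulated range. The log2 fold change was 3.38 for IFNγ (SE 0.408, adjusted p = 2.51e-08) and 1.78 for IFNα (SE 0.399, adjusted p = 0.00135). The IFNα call held in all 8 fits without 1 library, with a log2 fold change of 1.5 to 2.09.

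PSME1 and PSME2 (chromosome 14, 24136163 to 24138967 and 24143362 to 24147570) rose with 5 cytokines each. PSME1 had 75.4, 78.7, 66.1 and 71.7 CPM in unstimulated cells, 422, 341, 375 and 383 CPM after IFNγ and 240, 290, 249 and 178 CPM after IFNα. PSME2 had 153, 175, 127 and 137 CPM unstimulated, 1661, 1694, 1188 and 1324 CPM after IFNγ and 1138, 1173, 829 and 908 CPM after IFNα. For both genes all interferon libraries were above all unstimulated ones. PSME2 had the smallest adjusted p of any member, with a log2 fold change of 3.31 for IFNγ (SE 0.157, adjusted p = 6.42e-21) and 2.77 for IFNα (SE 0.154, adjusted p = 8.6e-19). The log2 fold change of PSME1 was 2.38 for IFNγ (SE 0.182, adjusted p = 5.01e-14) and 1.71 for IFNα (SE 0.179, adjusted p = 3.83e-10).

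TNF, IL-1β and IL-13 also raised both PA28 genes. After TNF, PSME2 had 454, 428, 400 and 477 CPM and PSME1 196, 212, 134 and 118 CPM. The log2 fold changes were 1.57 (SE 0.149, adjusted p = 6.61e-11) and 1.17 (SE 0.178, adjusted p = 4.69e-06), with no overlap with the unstimulated libraries. After IL-1β, PSME2 rose by 0.97 (adjusted p = 4.82e-06) and PSME1 by 0.75 (adjusted p = 0.00354) on the log2 scale. After IL-13, PSME2 rose by 1.03 (adjusted p = 4.07e-06) and PSME1 by 0.80 (adjusted p = 0.00377). These calls held in every fit without 1 library. After TGF-β1 the 4 libraries of PSME1 (49.1, 45.7, 64.4 and 38.2 CPM) lay below all unstimulated ones, but the log2 difference of −0.57 was not called (adjusted p = 0.0625), except without TGF-β1 replicate 3 (adjusted p = 0.0375).

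Apart from the interferons, no cytokine gave a call for an immunoproteasome catalytic subunit in the fit of all 44 libraries, but several values lay about 1 log2 unit above unstimulated, and some were called under other settings. After TNF these were 1.05 for PSMB10 (adjusted p = 0.0882), 1.01 for PSMB9 (adjusted p = 0.0544) and 0.95 for PSMB8 (adjusted p = 0.121). Without TNF replicate 2, PSMB10 (adjusted p = 0.0223) and PSMB9 (adjusted p = 0.0195) were called after TNF, and PSMB10 also without unstimulated replicate 1 (adjusted p = 0.0415). After IL-13, PSMB9 had 46.5, 42.5, 49.6 and 54.2 CPM, all above the unstimulated libraries, with a log2 difference of 1.06 (adjusted p = 0.0809). After OSM, PSMB8 had 33.5, 17.2, 22.0 and 23.1 CPM, again all above, with 1.22 (adjusted p = 0.0667), and PSMB9 had 1.04 (adjusted p = 0.0861). DESeq2 and the fit of all genes with any count called PSMB9 after TNF, IL-13 and OSM and PSMB8 after OSM. The replicate block (adjusted p = 0.0492) and DESeq2's size factors (0.0488) also called PSMB9 after TNF, and the fit of only the libraries compared called it after IL-13 (0.0412). Without unstimulated replicate 1, PSMB8 was called after OSM (adjusted p = 0.0371), and without OSM replicate 4 so was PSMB9 (adjusted p = 0.0426). PSMB10 stood at 1.06 after IL-22 and was called under no setting. In fits without 1 library that value was 0.52 to 1.36, with replicate 3 at 49.99 CPM and the other replicates at 12.9 to 18.8 CPM.

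**Figure D4:**
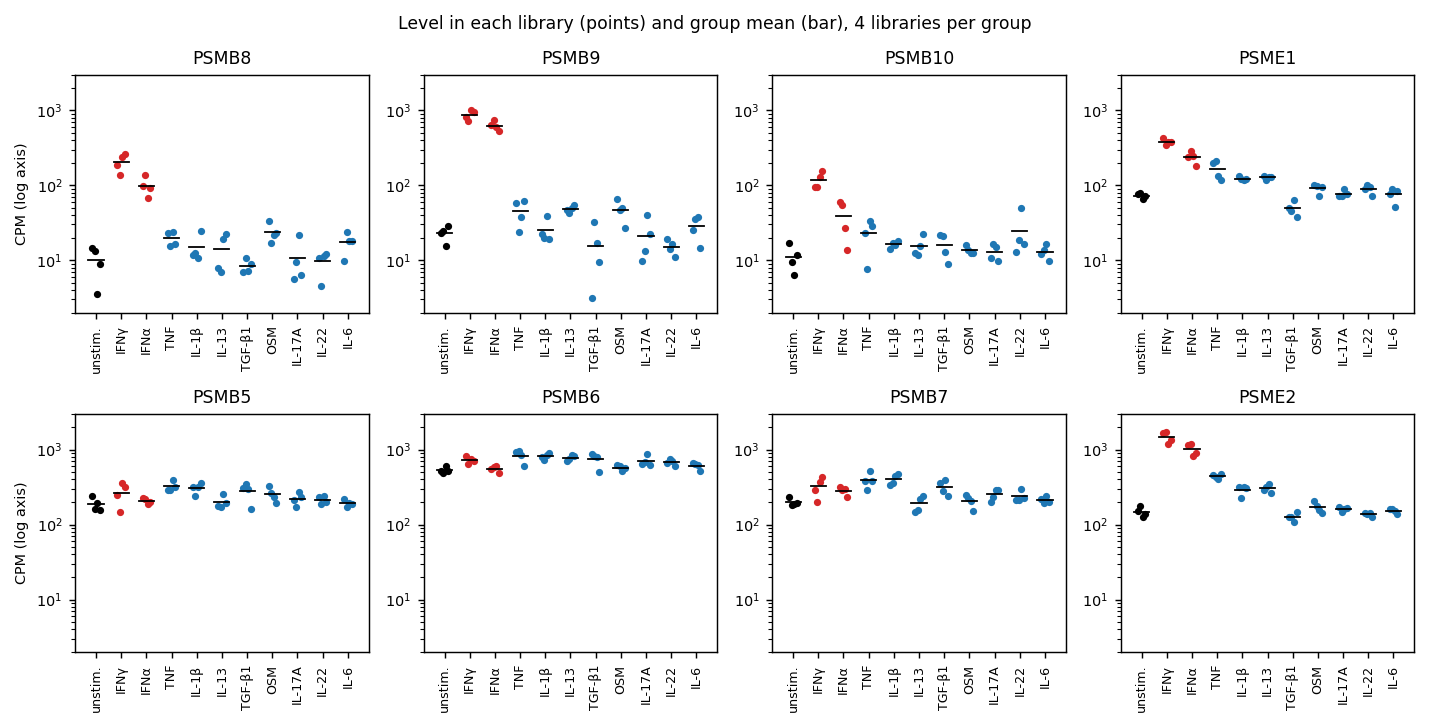
CPM of the 3 immunoproteasome subunits, the 2 PA28 genes and the 3 constitutive catalytic subunits in each library (points; bar, mean; log axis), with unstimulated cells in black, interferons in red and other cytokines in blue, 4 libraries per group. PSMB8 and PSMB9 after IFNγ and IFNα lie above all other groups, and PSMB10 after IFNα spreads from 13.7 to 59.5 CPM.

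The constitutive catalytic subunits all rose after TNF and IL-1β, and PSMB6 and PSMB7 also rose after IFNγ. PSMB5 (chromosome 14, 23016543 to 23035230) had 239, 163, 197 and 159 CPM unstimulated. It had 313, 241, 318 and 359 CPM with IL-1β and 289, 292, 398 and 314 CPM with TNF, all higher. On the log2 scale it rose by 0.77 after TNF (SE 0.208, adjusted p = 0.00936) and by 0.70 after IL-1β (SE 0.207, adjusted p = 0.0261). For IL-1β the call was lost in 5 of 8 fits without 1 library, with adjusted p up to 0.107 without IL-1β replicate 4. After IFNγ and IFNα PSMB5 showed 0.49 and 0.13, neither called, and the IFNγ value was called without IFNγ replicate 2 (0.71, adjusted p = 0.0123).

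PSMB7 (chromosome 9, 124353465 to 124415444) had 236, 183, 186 and 195 CPM unstimulated against 387, 290, 511 and 377 CPM with TNF and 342, 357, 443 and 477 CPM with IL-1β, with no overlap. Its log2 fold change was 1.02 for IL-1β (adjusted p = 0.00033), 0.97 for TNF (adjusted p = 0.000493), 0.69 for IFNγ (adjusted p = 0.017) and 0.67 for TGF-β1 (adjusted p = 0.0351). PSMB6 (chromosome 17, 4796144 to 4798502) rose by 0.65 after TNF, 0.63 after IL-1β, 0.56 after IL-13, 0.50 after TGF-β1 and 0.46 after IFNγ. The TNF and IL-1β calls of PSMB6 and PSMB7 held without any 1 library. With TGF-β1 the call was lost in 6 of 8 such fits for PSMB6 (adjusted p up to 0.147) and in 5 for PSMB7 (up to 0.134), and with IL-13 in 4 for PSMB6 (up to 0.0728). The IFNγ call was lost in 6 of 8 fits for PSMB6 (adjusted p up to 0.105, without unstimulated replicate 2) and in 3 of 8 for PSMB7 (up to 0.121, without IFNγ replicate 4). IFNα raised none of the 3 constitutive catalytic subunits, whose log2 fold changes were 0.13, 0.07 and 0.50, and DESeq2 called none of them either.

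To compare the alternative subunits directly, the log2 ratio of counts of each immunoproteasome subunit to the constitutive subunit it replaces was taken within each library (0.5 added to each count). PSMB9/PSMB6 was −4.54 ± 0.49 in unstimulated cells, 0.26 ± 0.22 after IFNγ and 0.16 ± 0.15 after IFNα (SD, n = 4). PSMB8/PSMB5 was −4.34 ± 0.91, −0.33 ± 0.21 and −1.11 ± 0.34. PSMB10/PSMB7 was −4.20 ± 0.44, −1.41 ± 0.25 and −3.07 ± 0.83. The differences from unstimulated cells were 4.80 (SE 0.269) and 4.70 (SE 0.257) for PSMB9/PSMB6 and 4.02 (SE 0.468) and 3.23 (SE 0.487) for PSMB8/PSMB5, IFNγ before IFNα. They were 2.79 (SE 0.253) for IFNγ and 1.13 (SE 0.468) for IFNα for PSMB10/PSMB7. In all but the last, the 4 libraries lay above the 4 unstimulated ones, for which the two-sided exact permutation test gave p = 0.0286, the smallest this design allows. After Benjamini-Hochberg adjustment over the 30 exact permutation tests the value was 0.143, and none of the 30 was called. With p bounded at 0.0286, a larger shift could not have lowered this value. Only full separation of many more ratios could have brought it under 0.05. The lack of calls therefore does not bear on the size of the differences. PSMB10/PSMB7 after IFNα overlapped unstimulated cells (exact permutation p = 0.0857, adjusted 0.198), with the libraries at −2.41, −2.37, −3.44 and −4.06.

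Among the 8 other cytokines, PSMB9/PSMB6 after IL-13 was the only ratio that did not overlap unstimulated cells (difference 0.53, SE 0.253, exact permutation p = 0.0286, adjusted 0.143). After TNF the 3 ratios differed from unstimulated cells by 0.33 (PSMB8/PSMB5, SE 0.477), 0.29 (PSMB9/PSMB6, SE 0.492) and 0.00 (PSMB10/PSMB7, SE 0.391), where both members of each pair stood higher. After IL-1β they differed by −0.06, −0.53 and −0.39 (SE 0.511, 0.337 and 0.239). The ratio PSMB9/PSMB6 after TGF-β1 was −5.94 ± 1.42, with 1 library at −7.97, and overlapped the unstimulated libraries.

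Per kb of transcript, PSMB9 was 3.45 ± 1.00% of the sum of PSMB9 and PSMB6 in unstimulated cells, 49.3 ± 3.74% after IFNγ and 47.6 ± 2.52% after IFNα (SD, n = 4). PSMB8 was 4.74 ± 2.25% of the sum with PSMB5 in unstimulated cells, 42.5 ± 3.58% after IFNγ and 30.2 ± 5.08% after IFNα. PSMB10 was 5.19 ± 1.47%, 27.5 ± 3.58% and 11.5 ± 5.37% of the sum with PSMB7. The highest mean share outside the interferons was 8.83 ± 3.95% for PSMB10 after IL-22, where replicate 3 had 14.5% and the other libraries 5.69 to 8.28%. These are shares of transcript, not of assembled cores.

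**Figure D5:**
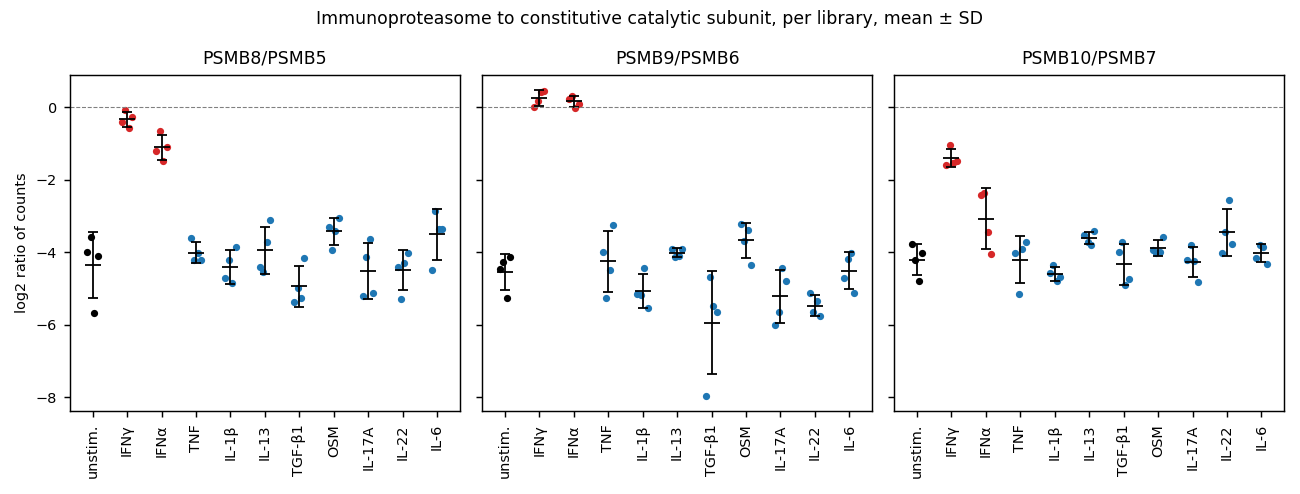
Log2 ratio of counts of each immunoproteasome subunit to its constitutive counterpart in each library (points) with mean ± SD by group, interferons in red, other cytokines in blue and the dashed line at equal counts. PSMB9/PSMB6 lies around 0 after both interferons, whereas PSMB10/PSMB7 after IFNα spreads from −4.06 to −2.37.

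The direct contrast of the interferons asked whether they differed. IFNα lay below IFNγ for 6 of 46 members and above it for 0, where 4.93% of all genes were higher and 4.46% lower with IFNα. The log2 difference was −1.60 for PSMB10 (SE 0.37, adjusted p = 0.00262), −1.06 for PSMB8 (SE 0.332, adjusted p = 0.0326), −0.67 for PSME1 (adjusted p = 0.0069), −0.54 for PSME2 (adjusted p = 0.0102), −0.62 for PSMD12 and −0.50 for PSMB4. For PSMB9 it was −0.49 and not called, with 0.271 as the lowest adjusted p without 1 library. PSMB10 was called in all 8 fits without 1 library. PSMB8 was not called without IFNα replicate 1 (adjusted p = 0.0716), 3 (0.114) or 4 (0.0891) or IFNγ replicate 3 (0.0887) or 4 (0.122). PSME1 lost its call without IFNα replicate 4 (adjusted p = 0.0543) and PSME2 without IFNα replicate 3 (0.0521) or 4 (0.0511). Without IFNα replicate 1, PSMB4 (adjusted p = 0.05) and PSMD12 (0.0503) were not called. The number of members called was 3 without IFNα replicate 1 or 4.

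IFNγ against TNF called 7 members higher and 2 lower, where 4.51% of all genes were higher and 3.5% lower. The 5 inducible genes were all higher with IFNγ, from 1.21 for PSME1 to 4.24 for PSMB9 on the log2 scale, and held without any 1 library, as did PSMA4 (0.65). PSMA5 was higher by 0.53, and PSMD11 (−0.36) and PSMD14 (−0.39) were lower, and these 3 calls were lost in 4, 6 and 7 of 8 fits without 1 library. IFNα against TNF called 5 members higher and 8 lower, against 8.35% and 7.4% of all genes. PSMB9 (3.75), PSMB8 (2.31) and PSME2 (1.20) were higher with IFNα and held without any 1 library. PSMB10 was not called (0.73, adjusted p = 0.218), and PSME1 (0.54) and PSMA4 (0.35) lost their call in 5 and 7 of 8 fits. Lower with IFNα were PSMB4, PSMB5, PSMB6, PSMC2, PSMC5, PSMD10, PSMD12 and PSMD14, by 0.42 to 0.81. Of these, PSMC5 lost its call in 5, PSMB5 and PSMD14 in 3 and PSMD10 in 2 of 8 fits. The count was 8 in place of 13 without IFNα replicate 4 or without TNF replicate 3.

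Genes of the alpha ring, which gates the core, rose mainly with 4 cytokines. Of 7 measured alpha genes, 6 rose after IFNγ and after IL-1β, 5 after IFNα and 4 after TNF. Of all genes 5.52%, 3.46%, 4.99% and 5.37% rose after these cytokines. TGF-β1 and OSM each raised 1 alpha gene, PSMA7, where 2.61% and 1.42% of all genes rose. PSMA6 moved most. It had 209, 236, 214 and 208 CPM unstimulated, 546, 550, 570 and 536 CPM after IFNγ and 404, 380, 435 and 410 CPM after IFNα. With IL-1β it had 431, 404, 532 and 610 CPM and with TNF 459, 419, 545 and 500 CPM. All of these were above every unstimulated library, with log2 fold changes of 1.34 for IFNγ, 0.91 for IFNα, 1.19 for IL-1β and 1.15 for TNF. PSMA2 rose by 1.03 after IFNγ, 0.77 after IFNα and 0.65 after IL-1β and TNF, and PSMA3 by 0.81, 0.68, 0.57 and 0.54. PSMA4 rose by 0.97 after IFNγ, 0.68 after IFNα and 0.41 after IL-1β, the last lost in 4 of 8 fits without 1 library. PSMA5 rose by 0.98 after IFNγ and 0.85 after IFNα, and stood at 0.48 after IL-1β and 0.46 after TNF, both called by DESeq2. PSMA1 rose after IL-1β (0.56), with 0.05 after IFNγ and −0.01 after IFNα. PSMA7 rose by 0.75 after TNF, 0.66 after IFNγ, 0.56 after IL-1β and TGF-β1 and 0.48 after OSM, where it was the 1 member called.

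The structural beta subunits PSMB1, PSMB2, PSMB3 and PSMB4 all rose after IFNγ, TNF and IL-1β. After IFNα PSMB2 rose, and PSMB1, PSMB3 and PSMB4 had 0.24, 0.34 and 0.12. PSMB2 had 73.0, 69.99, 70.4 and 84.7 CPM unstimulated and 165, 151, 164 and 166 CPM after IFNα, a log2 fold change of 1.12, against 0.94 after IL-1β, 0.83 after TNF and 0.69 after IFNγ. PSMB4 had 544, 671, 846 and 774 CPM unstimulated and 1090, 1080, 1421 and 1363 CPM after IL-1β, and rose by 0.81 there, by 0.66 after TNF and by 0.62 after IFNγ. It was also the 1 member raised by IL-17A (0.52, adjusted p up to 0.201 without unstimulated replicate 1) and 1 of 4 raised by IL-13 (0.56, adjusted p = 0.0606 without unstimulated replicate 1). PSMB1 rose by 0.77 after IL-1β, 0.56 after IFNγ and 0.52 after TNF. PSMB3 rose by 0.78 after IFNγ, 0.54 after IL-1β and 0.49 after TNF, and the last 2 were lost in some fits without 1 library. The IFNγ calls of PSMB1 (adjusted p = 0.0921) and PSMB4 (0.0799) were lost in the fit of only the libraries compared. That of PSMB2 was lost in the fit of all genes with any count (0.0644). The TNF call of PSMB1 was lost in both fits (0.0745 and 0.0786).

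The 19S cap rose after IL-1β and TNF in part. IL-1β raised 1 of 6 ATPases and 5 of 11 other cap subunits, and TNF raised 2 of 6 and 3 of 11, where 3.46% and 5.37% of all genes rose. IFNγ raised 0 of these 17 genes and IFNα raised 1, PSMD4 (0.70), with DESeq2 calling the same numbers. The counts for the interferons are near the share over all genes, of which 5.52% rose after IFNγ and 4.99% after IFNα. After IL-1β the cap genes raised were PSMC5 (0.68), PSMD14 (0.82), the deubiquitinating subunit of the lid, PSMD11 (0.66), PSMD12 (0.53), PSMD7 (0.50) and PSMD6 (0.48). Of these, PSMD14 and PSMD11 held without any 1 library, and PSMD12 was lost in 6 of 8 such fits. After TNF they were PSMC2 (0.96), PSMC5 (0.69), PSMD14 (0.63), PSMD4 (0.58) and PSMD7 (0.44), of which PSMC2 and PSMD14 held without any 1 library. TGF-β1 raised PSMC2 (0.86) and PSMD4 (0.55), besides PSMA7, PSMB6 and PSMB7. PSMC2 was the 1 of its 5 calls that held without any 1 library.

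PSMD12, a lid scaffold subunit, went in opposite directions, with 256, 389, 404 and 442 CPM unstimulated, 524, 618, 502 and 514 CPM after IL-1β and 222, 234, 289 and 270 CPM after IFNα. The fall by 0.55 on the log2 scale after IFNα was the 1 fall called among all members, and it was not called in 6 of 8 fits without 1 library (adjusted p up to 0.144, without unstimulated replicate 4). PSMF1, which encodes the inhibitor PI31, had 38.2, 17.5, 10.6 and 19.1 CPM unstimulated and 80.5, 60.6, 39.7 and 36.7 CPM after IFNα. The lowest IFNα library lay below the highest unstimulated one. It rose by 1.33 after IFNα (SE 0.411, adjusted p = 0.0284), a call lost in 5 of 8 fits without 1 library (adjusted p up to 0.133, without IFNα replicate 1), and stood at 1.13 after IFNγ (adjusted p = 0.0708), which DESeq2 called.

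No chaperone of 20S or 19S assembly among the 7 members, and neither PSME3 nor PSME4, was called for any cytokine against unstimulated cells by edgeR or DESeq2. At most 5.52% of all genes rose and 6.09% fell for any 1 cytokine, so the lack of calls does not set these few genes apart. PSMG4, named for the interferon response element letters after its values were seen, had 11.3, 10.2, 12.7 and 10.9 CPM unstimulated and 18.1, 14.1, 23.4 and 29.2 CPM after IFNγ, all higher, with a log2 difference of 0.91 that was not called. Among the other holders, PSMA4 and PSMB4 rose after IFNγ by 0.97 and 0.62, and PSMA4 after IFNα.

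Members other than the 5 inducible genes overlapped to differing degrees between cytokines. IL-1β raised 19 of these 41, TNF 16, IFNγ 12 and IFNα 8, where 3.46%, 5.37%, 5.52% and 4.99% of all genes rose. IL-1β and TNF had 14 in common, 73.7% of the IL-1β genes and 87.5% of the TNF genes. IFNγ and IL-1β had 11 in common, 57.9% of the IL-1β and 91.7% of the IFNγ genes, and IFNγ and IFNα had 6, which is 75% of the IFNα and 50% of the IFNγ genes. IFNα had 5 in common with IL-1β (26.3% of the IL-1β and 62.5% of the IFNα genes) and 5 with TNF (31.2% of the TNF and 62.5% of the IFNα genes). As the comparisons share the unstimulated libraries, these shares are a description. The overlap of calls over all genes was not computed, so it is not known whether such sharing is particular to these members.

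Of 24 other genes of proteasome assembly, ubiquitin and substrate delivery, 23 were tested. IFNγ raised 4, IL-1β 4, TNF 3, IFNα 2 and TGF-β1 1, and the list's median log2 fold change was 0.10 to 0.23 for these cytokines. Of all genes 5.52%, 3.46%, 5.37%, 4.99% and 2.61% rose after the same cytokines, so the IFNα and TGF-β1 counts are near the share over all genes. POMP, the chaperone that completes core maturation and is needed for the immunoproteasome, had 733, 933, 1234 and 1029 CPM unstimulated and 1655, 2128, 1619 and 1253 CPM after IFNγ. All IFNγ libraries were higher, with a log2 fold change of 0.76, and POMP was called for no other cytokine. It was lower with IFNα than with IFNγ by 0.61 (called). NFE2L1, the transcription factor of proteasome subunit genes, had 3.52 to 15.0 CPM unstimulated, 19.1 to 25.9 CPM with IL-1β and 14.1 to 25.2 CPM with TNF, the latter overlapping. It rose by 1.30 and 1.18, and stood at −0.04 after IFNγ. UBD, a ubiquitin-like modifier, was at 0 counts in the 4 unstimulated libraries and had 27.9 to 88.4 CPM after IFNγ, 0 to 12.7 CPM after IFNα, 3.31 to 6.49 CPM with IL-1β and 34.6 to 50.8 CPM with TNF. An annotated gene on the opposite strand, OR2I1P, overlaps UBD. The ubiquitin gene UBB rose by 0.97 after IFNγ, 0.77 after TNF, 0.64 after IL-1β and IFNα and 0.58 after TGF-β1. UBQLN1, a shuttle of ubiquitinated proteins, rose by 0.93 after IL-1β. UCHL5, a deubiquitinase of the cap, fell by 0.57 after IFNα, and ZFAND5 fell by 0.67 after TGF-β1, where 4.86% and 3.08% of all genes fell.

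Of 9 genes that supply peptides to class I or regulate that supply, all 9 rose after both IFNγ and IFNα, with list medians of 3.24 and 2.51. TAP1, a chain of the peptide transporter, had 0 to 6.56 CPM unstimulated, 110 to 164 CPM after IFNγ and 39.9 to 68.5 CPM after IFNα. TNF raised 4 (TAP1, TAPBP, B2M and NLRC5), IL-1β and IL-13 raised B2M by 0.44 each, and IL-17A raised NLRC5. IRF1, the transcription factor that binds interferon response elements, had 2.11 to 8.32 CPM unstimulated, 115 to 130 CPM after IFNγ and 7.16 to 27.7 CPM after IFNα. In the direct contrast IRF1 was lower with IFNα by 2.99 on the log2 scale, the 1 gene of the 9 called there.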

How the data were processed

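Per the labels and the methods, RNA of Ccd-18Co cells was sequenced, and per the submitters' processing notes the reads were checked with FastQC (version 0.11.9) and MultiQC (version 1.14) and quantified with kallisto (version 0.48.0), with default settings, which use no strand. The authors deposited estimated counts per gene symbol, unscaled for depth, of which 5.73% are not whole. The notes name hg38, and the annotation release is not given in the sources used here. Every column belonged to 1 of the 44 libraries.

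Counts were rounded, genes were kept by filterByExpr (9513) and library sizes were scaled by edgeR's TMM method. edgeR (version 4.0.16, R version 4.3.3) fitted all 11 groups in 1 quasi-likelihood model, with common biological coefficient of variation 0.331, and p-values were adjusted by Benjamini-Hochberg per comparison. No member was removed other than the 2 at 0 counts. CPM use the normalized library sizes. On simulated counts the test was checked, with shares of recovered genes not quoted here. Ratios were tested by exact permutation, and the smallest adjusted p was 0.143. The members, their classes, the lists and the tests were chosen with earlier results of these data known. Named genes were the 5 inducible and 3 constitutive catalytic genes, all other members called for a cytokine, and the highest and lowest of each class.

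No 2 replicates were 1 library deposited again: 0 of 66 pairs were identical, and the lowest chi-square per degree of freedom was 3.21. Coordinates are from GENCODE release 44 and promoter windows from RefSeq, both on GRCh38. Alternatives were DESeq2 (version 1.42.0), its size factors, other count filters, only the 8 libraries compared, the replicate number as a block, a fold threshold and leaving out each library. Single values of some genes of the lists are not reported here.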

Additional observations from a re-analysis of the deposited data

Results flagged for a closer look

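Among 88 groups of 4 libraries (8 genes, 11 groups), 4 CPM values lay far from the rest of their group by Dixon's criterion (95% level). Chance flags about 1 in 20 such groups, or 4.4 of 88. In IL-1β replicate 4, PSMB8 had 24.6 CPM against 10.8 to 12.6 CPM in the other replicates. In IL-1β replicate 3, PSMB9 had 38.8 CPM against 19.5 to 22.2 CPM. In IL-22 replicate 3, PSMB10 had 49.99 CPM against 12.9 to 18.8 CPM. In IL-1β replicate 2, PSME2 had 223 CPM against 311 to 314 CPM. None of the 3 high values belongs to a called comparison, and PSME2 after IL-1β was called without any 1 library.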

How the results depend on the processing

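Of the 109 calls of a member in a comparison, 60 held under every alternative other than the fold threshold, and no called value changed sign. DESeq2 and the replicate block kept all 109, DESeq2's size factors lost 2, the filter of 10 counts in 4 libraries lost 1, the use of all genes with any count lost 30, and the fit of only the 8 libraries compared lost 28 of 81. With any count the number of members called was 13 for IL-1β, 0 for IL-17A, 3 for TGF-β1 and 2 for OSM. With only the compared libraries it was 0 for IL-17A, TGF-β1 and OSM and 11 for TNF, and with size factors 8 for TGF-β1. DESeq2 called 2 for IL-17A and for IL-22, 8 for TGF-β1 and 4 for OSM. With an absolute log2 fold change above 1.5 it was 5 for IFNα and IFNγ, 1 for TNF and 0 for IL-1β, IL-13, IL-17A, TGF-β1 and OSM. Leaving out 1 library gave 14 to 22 for IL-1β, 3 to 5 for IL-13, 0 to 3 for IL-17A, 0 to 1 for IL-22, 12 to 15 for IFNα, 15 to 20 for IFNγ, 1 to 9 for TGF-β1, 14 to 24 for TNF, 0 to 4 for OSM, 3 to 7 for IFNα against IFNγ, 8 to 13 for IFNα against TNF and 6 to 7 for IFNγ against TNF. The causes were not tested. The labels do not say what a replicate number shares. The median correlation of same-numbered libraries was 0.0189, 6 of 40 pairs with unstimulated cells were over 0.1 (highest 0.281), and for 0 cytokines were all pairs over it, so the numbers were not taken to pair the samples. As a hint from the data only, 22 of 44 libraries were closest to their own number, more than 4 numbers with nothing shared would give. The median correlation of libraries with other numbers was −0.0069. Whether a number stands for a shared factor was not tested, and the permutation tests used no replicate number. The replicate block also called PSMB9 after TNF. With it the number of members was 2 for IL-17A, and it stayed within 1.5 times for the other comparisons. Depth limits PSMB8, PSMB10 and PSMD3, with as few as 5, 9 and 0 counts in an unstimulated library.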
